A study of Mus musculus with 18 samples.

Results

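The transcripts of the mitochondrial genome were followed in RNA sequencing of mouse induced pluripotent stem cells (iPSCs) and of the epiblast-like cells (EpiLCs) made from them. The members were all 37 genes of 45706 in the count table whose symbol starts with mt-. They comprise 13 protein genes, 2 rRNA genes and 22 tRNA genes. At least 10 counts over the 18 libraries were found for 18 of them, namely the 13 protein genes, both rRNA genes and 3 tRNA genes. The 13 protein genes and both rRNA genes, 15 in all, passed the filter on low counts and were tested.

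The libraries fall into 6 groups of 3. Cells of 1 Hmga2 wt clone and of 2 Hmga2 KO clones, KO#1 and KO#2, were sampled at 0 h and at 24 h of induction. At 0 h the iPSCs were grown with LIF and 2i inhibitors on inactivated fibroblast feeders. At 24 h the cells were in medium with Activin A and bFGF on Geltrex, without feeders, so time, medium and feeders cannot be told apart. Each genotype is represented by clones only, and a difference between a KO clone and wt cannot be told apart from a difference between clones. Total RNA was sequenced, and the labels call the 3 libraries of a group biological replicates.

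The mitochondrial genome is a small circle in which both strands are read as long precursors. The precursors are cut mostly at the tRNA genes that lie between the others, which frees the rRNAs of the mitochondrial ribosome and the mRNAs of respiratory chain subunits. The level of each mRNA then depends on how long it is kept and not only on transcription. Cells that leave naive pluripotency are known for a move from the joint use of respiration and glycolysis towards glycolysis.

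Library totals ran from 3466436 to 23872837 counts, with the fewest in wt 0 h replicate 1. Scaling factors between libraries, the TMM factors of edgeR, ran from 0.507 to 1.45, and were 0.507 to 0.838 in wt and KO#1 at 24 h against 1.31 to 1.45 in the KO#2-labelled libraries at that time. Hmga2 itself had a mean of 17.7 ± 4.53 CPM (counts scaled to a common library size after TMM factors) in wt, 5.50 ± 4.28 in KO#1 and 4.73 ± 3.25 in KO#2 at 0 h (SD, n = 3). The log2 difference from wt was -1.71 ± 0.63 in KO#1 (SE, adjusted p = 0.124, edgeR) and -1.90 ± 0.62 in KO#2 (adjusted p = 0.0230) at 0 h, so that KO#2 passed as lower there and KO#1 did not. At 24 h its means were 5.77, 2.26 and 5.65 CPM. The log2 difference from wt was -1.36 ± 0.64 in KO#1 (SE, adjusted p = 0.220, edgeR). In KO#2 it was -0.04 ± 0.60 (adjusted p = 0.966), so neither clone passed as lower at 24 h. The KO#2 mean of 24 h (SD 4.17) rests on replicate 1, with 200 counts against 78 and 80. It therefore cannot decide whether Hmga2 was lower there. The lowest KO#2 library of 24 h was at 3.02 CPM and the lowest wt library at 5.51. In wt the log2 fold change over time was -1.61 ± 0.62 (adjusted p = 0.0362). The KO#2 libraries are called the KO#2-labelled libraries at both times, which does not mean that the label is wrong. KO#1 keeps its name although it passed as lower at neither time. The summed level of 8 markers of feeder fibroblasts, of which Dcn was at 0 in 4 libraries, was 110.0 to 898 CPM at 0 h and 19.0 to 219 CPM at 24 h, and at 24 h it was 71.0 CPM or more in the KO#2-labelled libraries and 51.8 CPM or less in the others. Summed pluripotency markers were at 2878 CPM or more at 0 h and at 1973 CPM or less at 24 h. That list holds the core factors Pou5f1 and Sox2 as well as naive markers. Summed epiblast markers were at 115 CPM or less at 0 h and at 378 CPM or more at 24 h. Some members went against their sum. Pou5f1 means at 24 h were 1412 CPM (wt), 1228 (KO#1) and 832 (KO#2-labelled), after 1144, 1127 and 526. Zfp42 was higher at 24 h in KO#1 only, with a mean of 150 CPM after 120. Dcn means at 24 h were 5.80, 1.34 and 7.18 CPM in the same order, after 0, 0.223 and 4.04. The remaining feeder and pluripotency markers had lower means at 24 h in every clone. Any part of feeder RNA in the mitochondrial values was not tested, and in bulk RNA fewer cells of a type cannot be told apart from less RNA per cell.

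Before any level can be read, the nuclear copies have to be considered. A block of mitochondrial sequence lies in the nuclear genome at chr1:24611535-24616197 (GRCm38, minus strand, 4663 bases), and the annotation places 7 genes in it that are near-identical to mt-Co1, mt-Co2, mt-Atp6, mt-Co3, mt-Nd3, mt-Nd4l and mt-Nd4 or to a stretch of them. Over 4140 aligned bases, the copies and the mitochondrial genes differ by 2 mismatches and 0 gaps. The pair of stretches around the mismatches is shown because, within the aligned bases, these are the only letters that tell the genes of a pair apart. The mismatch is in capitals, the strand is that of the gene, and positions are counted from the first base of the mitochondrial gene. The first is T3C between mt-Nd3 and Gm28438, and the second is A1066T between mt-Co1 and Gm29216.
mt-Nd3: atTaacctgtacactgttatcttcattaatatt
Gm28438: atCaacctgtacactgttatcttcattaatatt
mt-Co1: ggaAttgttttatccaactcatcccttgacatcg
Gm29216: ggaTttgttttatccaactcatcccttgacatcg

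The table nevertheless gave counts to both genes of each pair. On average over the 18 libraries, the nuclear copy took 75.0% of the summed counts of the mt-Co2 pair, 66.6% of the mt-Nd4l pair, 61.1% of the mt-Co3 pair, 60.6% of the mt-Nd3 pair and 43.7% of the mt-Atp6 pair. It took 4.6% for mt-Nd4 and 3.4% for mt-Co1, whose copies are partial. The mean for mt-Nd4 rests on wt 0 h replicate 1 at 44.0% and KO#1 0 h replicate 2 at 25.6%, as no other library was above 6.08%. The split was not the same in all groups. For mt-Co2 the copy held group means of 82.5% to 86.2% in wt and KO#1 but 54.8% at 0 h and 56.1% at 24 h in the KO#2-labelled libraries, and the ranges of the libraries did not overlap. For mt-Atp6 in wt 0 h the copy held from 0% to 53.4%. The levels of these 7 genes as deposited are therefore uncertain, and beside the deposited values the main ones are given with the copy's counts added to the gene's. The sum was chosen after the data had been seen. For mt-Nd1, mt-Nd2, mt-Atp8, mt-Nd5, mt-Nd6 and mt-Cytb no such copy was found among the annotated genes of the count table, and unannotated nuclear sequence was not searched. The last 43 bases of mt-Atp8, those it shares with mt-Atp6, also lie in Gm10925, the copy of mt-Atp6, which held up to 10696 counts in a library. None of 9 less similar nuclear matches had more than 194 counts in a library.

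**Figure D1:**
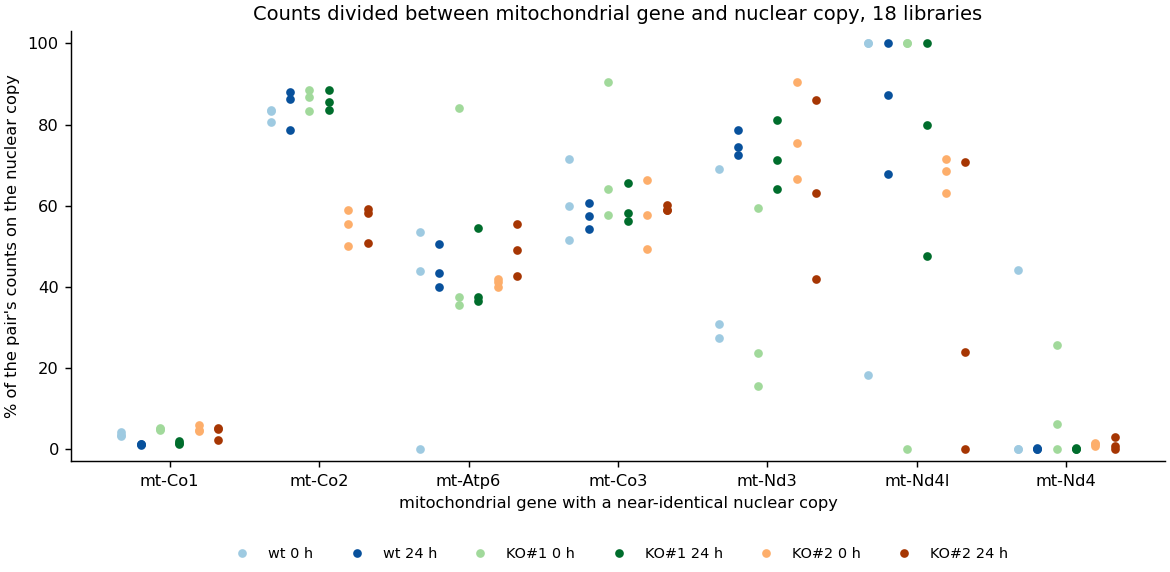
Percent of the summed counts of each pair that the table gave to the nuclear copy, for the 7 pairs, in the 6 groups. Points are libraries. The mt-Co2 copy held 78.8% to 88.6% in every wt and KO#1 library and 50.02% to 59.2% in every KO#2-labelled library.

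Overlaps between genes of the same strand are a further reason for care, and among the protein genes they span 43 bases of mt-Atp8 and mt-Atp6, 7 of mt-Nd4l and mt-Nd4 and 1 of mt-Atp6 and mt-Co3. The 297 bases of mt-Nd4l (chrM:9877-10173, GRCm38) are shown because this subunit gene of complex I was the one protein gene listed at 0 in some libraries, with the 7 bases it shares with mt-Nd4 in capitals. The 204 bases of mt-Atp8 (chrM:7766-7969), a subunit gene of ATP synthase, follow, with the 43 bases it shares with mt-Atp6 in capitals.
mt-Nd4l: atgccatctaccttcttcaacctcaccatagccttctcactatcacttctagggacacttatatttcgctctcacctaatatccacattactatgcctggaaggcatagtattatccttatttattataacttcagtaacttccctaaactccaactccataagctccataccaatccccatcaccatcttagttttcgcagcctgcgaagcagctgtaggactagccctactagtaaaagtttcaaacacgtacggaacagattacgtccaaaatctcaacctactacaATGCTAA
mt-Atp8: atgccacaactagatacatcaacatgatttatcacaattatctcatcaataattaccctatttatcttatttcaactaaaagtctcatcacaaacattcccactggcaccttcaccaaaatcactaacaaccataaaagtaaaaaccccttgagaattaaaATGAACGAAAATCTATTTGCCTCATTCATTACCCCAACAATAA

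Transcript levels differed widely among the genes of the mitochondrial DNA. They are compared here as CPM per kilobase of gene (CPM per kb), averaged over the 18 libraries. Among the protein genes mt-Co1 (chrM:5328-6872), which encodes the catalytic subunit of cytochrome c oxidase, complex IV, was highest at 3801 CPM per kb as deposited. The 16S rRNA gene mt-Rnr2 (chrM:1094-2675) followed at 3289 and the 12S rRNA gene mt-Rnr1 (chrM:70-1024) stood at 1109. Values of both rRNA genes, here and below, are counts left after the authors had discarded ribosomal sequences. How evenly that removal worked across libraries was not tested. With the nuclear copies added, the other complex IV genes mt-Co2 and mt-Co3 came to 2942 and 2812 CPM per kb, against 594 and 1162 as deposited, so the order among the complex IV genes depends on the copies.

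Genes of complex I, the NADH dehydrogenase, spanned a wide range. mt-Nd1 (chrM:2751-3707) had 1017 CPM per kb, mt-Nd3 (chrM:9459-9806) 245 as deposited and 744 with its copy, and mt-Nd4 (chrM:10167-11544) 242 and 261. Lower values were seen for mt-Nd5 (chrM:11742-13565) at 201, mt-Nd2 (chrM:3914-4951) at 167 and mt-Nd6 (chrM:13552-14070) at 134 CPM per kb. mt-Nd6 is the only protein gene on the minus strand, and its last 14 bases overlap the end of mt-Nd5 on the other strand. mt-Nd4l was lowest at 27.6 CPM per kb, or 86.6 with its copy. mt-Cytb (chrM:14145-15288), which encodes cytochrome b of complex III, had 499.6 CPM per kb. The ATP synthase genes mt-Atp6 (chrM:7927-8607) and mt-Atp8 had 508 and 407 as deposited, and mt-Atp6 had 909 with its copy.

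The order of the genes was not the same in every group, and the spread was wide. Group means are given as CPM per kb, as deposited, with the SD over 3 libraries, in the order wt, KO#1 and the KO#2-labelled libraries. The 12S gene mt-Rnr1 was at 2426 ± 769, 1551 ± 543 and 564 ± 347 at 0 h and at 997 ± 545, 857 ± 402 and 257 ± 295 at 24 h. The 16S gene mt-Rnr2 was at 3460.0 ± 2060, 2733 ± 579 and 2348 ± 949 at 0 h and at 5044 ± 2388, 4980.4 ± 2612 and 1169 ± 1063 at 24 h. The lowest means of both rRNAs were those of the KO#2-labelled libraries at 24 h, where replicate 1 had 597 of mt-Rnr1 and 2393 of mt-Rnr2 and the others 109 or less and 633 or less.

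Among complex I genes, mt-Nd1 was at 908 ± 469, 689 ± 223 and 538 ± 124 at 0 h and at 1624 ± 484, 1795 ± 642 and 550.4 ± 104 at 24 h. mt-Nd2 was at 299.9 ± 94.6, 187 ± 14.6 and 127 ± 40.1 and then at 136 ± 46.7, 128 ± 47.0 and 125.0 ± 112. mt-Nd5 was at 416 ± 88.0, 283 ± 129 and 170.2 ± 70.9 and then at 117 ± 48.3, 113 ± 50.7 and 108 ± 108. At 24 h the means of mt-Nd2 and mt-Nd5 in the KO#2-labelled libraries rest on replicate 1, which had 264 CPM (not per kb) of mt-Nd2 against 68.2 and 57.3 in the others. The same holds for mt-Nd4, which had 352 CPM per kb in that replicate against 67.5 and 45.6 in the others. mt-Nd6 was at 283 ± 268, 242 ± 205 and 50.9 ± 25.2 and then at 85.8 ± 35.2, 105 ± 48.2 and 38.3 ± 23.9. mt-Nd3 was at 289.6 ± 157, 251 ± 56.2 and 50.3 ± 11.7 and then at 388 ± 190.4, 354 ± 66.3 and 135 ± 69.3. mt-Nd4 was at 452 ± 209.8, 314 ± 52.1 and 288 ± 152 and then at 130.2 ± 82.3, 111 ± 54.5 and 155 ± 171. The KO#2-labelled libraries had the lowest means of mt-Nd3 and mt-Nd6 at both times. mt-Nd4l was listed at 0 in 6 libraries, and in the others it ran from 1.91 to 47.3 CPM (not per kb), the highest being wt 0 h replicate 2. In each of those 6 libraries the copy Gm10222 held 100% of the pair, with 110 to 500 counts, so that with the copy added no library was at 0.

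In complex IV, mt-Co1 was at 2743 ± 1621, 2525 ± 1179 and 3915 ± 1120.3 at 0 h and at 5365 ± 1945, 5785 ± 2808 and 2472 ± 316 at 24 h. mt-Co2 was at 473 ± 166, 306 ± 63.9 and 817 ± 141 and then at 689 ± 23.0, 718 ± 342 and 563 ± 52.3. mt-Co3 was at 706 ± 601, 414 ± 305 and 629 ± 63.2 and then at 2332 ± 983, 2140.2 ± 1131 and 749 ± 149. The KO#2-labelled libraries had the highest mean of mt-Co1 at 0 h and the lowest at 24 h, also with the copy added. Their deposited mean of mt-Co2 was the highest at 0 h, but with the copy added it was the lowest. mt-Cytb of complex III was at 606 ± 301, 358 ± 41.7 and 332 ± 54.2 and then at 721 ± 275, 727 ± 294 and 254 ± 91.6. mt-Atp8 of complex V was at 569 ± 49.0, 309.7 ± 25.6 and 267 ± 76.6 and then at 583 ± 232, 490.4 ± 227 and 220.1 ± 40.9. mt-Atp6 was at 560.0 ± 163, 281 ± 178 and 431 ± 110.5 and then at 769.9 ± 273, 695 ± 348 and 309 ± 84.7. In each of these 3 genes the lowest mean at 24 h was that of the KO#2-labelled libraries.

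With the copies added, the group means of the 7 genes in the same order, in CPM per kb, were as follows. For mt-Co1 they were 2840.2 ± 1674, 2655 ± 1241 and 4127 ± 1216 at 0 h and 5430.1 ± 1971, 5871 ± 2839 and 2579.9 ± 359 at 24 h. For mt-Co2 they were 2784 ± 1148, 2247 ± 519 and 1810.4 ± 289 and then 4636 ± 1200.3, 4893 ± 1672 and 1282 ± 38.7. For mt-Co3 they were 1621 ± 1126, 1318 ± 536 and 1543 ± 449 and then 5389.6 ± 1939, 5159 ± 2318 and 1839 ± 338. At 24 h the KO#2-labelled libraries were lowest in each of these complex IV genes. For mt-Atp6 the means were 973 ± 515, 573 ± 82.7 and 727 ± 174 and then 1420.1 ± 578, 1164 ± 449 and 599.8 ± 94.5. For mt-Nd3 they were 475 ± 113, 436 ± 280.4 and 267 ± 133 and then 1532 ± 584, 1357 ± 461 and 394 ± 108. For mt-Nd4 they were 509 ± 117, 362 ± 114 and 291 ± 155 and then 130.4 ± 82.6, 111 ± 54.6 and 159 ± 177. The lowest sums were those of mt-Nd4l, with 152 ± 37.9, 102 ± 43.5 and 80.5 ± 30.6 at 0 h and 71.5 ± 29.7, 68.6 ± 32.5 and 45.4 ± 33.7 at 24 h.

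**Figure D2:**
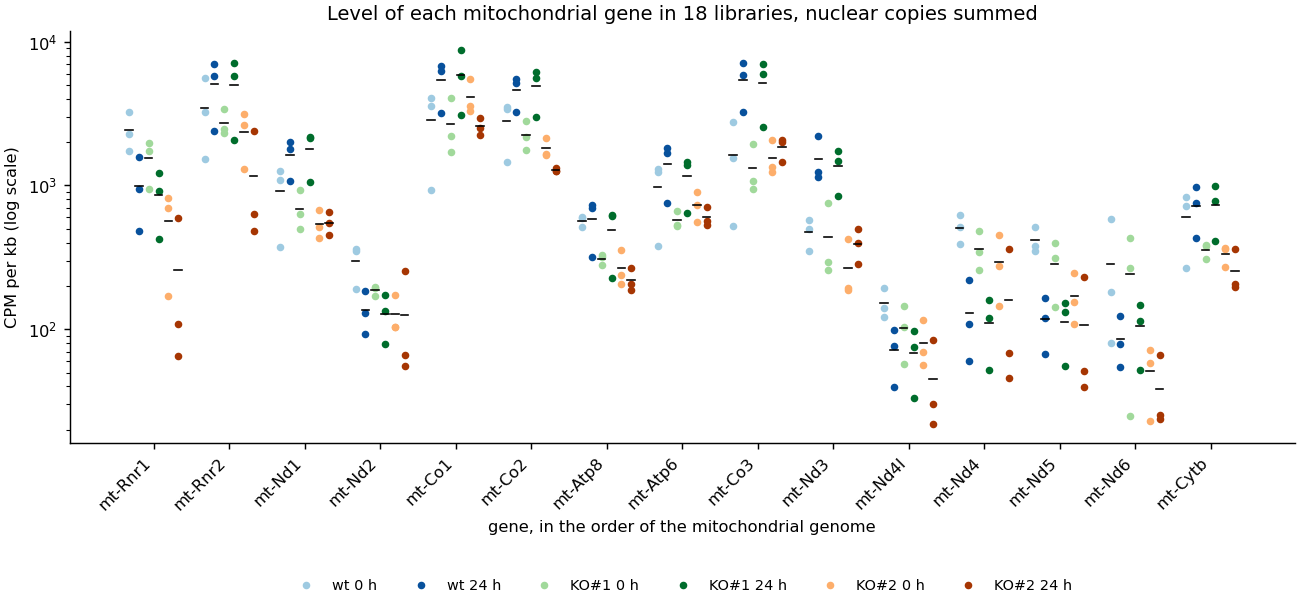
Level of the 15 tested genes in the 6 groups, in CPM per kb on a log axis, with the counts of near-identical nuclear copies added to the 7 genes that have one. Points are libraries and dashes are group means. mt-Co1 averaged 3917 and mt-Nd4l 86.6 CPM per kb over the 18 libraries.

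The libraries of a group differed strongly in these levels, and wt 0 h replicate 1 stood apart. mt-Co1 was at 1375 CPM (not per kb) in that library and at 6031 and 5306 in the other wt libraries of 0 h. In KO#1 at 0 h it was at 2499, 3244 and 5959 CPM, and in the KO#2-labelled libraries at 5259, 8033 and 4853. At 24 h it was at 10415, 9602 and 4852 CPM in wt, at 13337, 8815 and 4664 in KO#1, and at 3402, 3701 and 4357 in the KO#2-labelled libraries. Replicates 1 and 2 of wt and KO#1 at 24 h were thus above every other library, while replicate 3 of both fell among those of 0 h. For mt-Cytb wt had 303, 955 and 821 CPM at 0 h and 1119.7, 861 and 494 at 24 h. Replicate 1 was the lowest wt library of 0 h here too, and at 24 h replicate 3 was the lowest.

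As a share of all counts in a library, the 13 protein genes took 0.977% ± 0.501 in wt, 0.816% ± 0.241 in KO#1 and 1.31% ± 0.245 in the KO#2-labelled libraries at 0 h (SD, n = 3). At 24 h the shares were 0.933% ± 0.290, 0.923% ± 0.337 and 0.902% ± 0.0732. At each time the range of each KO clone overlapped that of wt. All members together took 0.761% to 2.63% of the counts of a library. The 2 rRNA genes took 0.108% to 1.31%, which is what was left after the authors had discarded ribosomal sequences.

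Counts on tRNA genes were few. The 22 tRNA genes had 108 counts in all, 12 of them had none in any library, and none was tested. Only mt-Tm with 45 counts, mt-Tv with 28 and mt-Tl1 with 10 reached 10 counts, and no library held more than 7 counts of any of them. mt-Tm carries methionine, mt-Tv valine and mt-Tl1 leucine. mt-Tv (chrM:1025-1093) lies between the rRNA genes, mt-Tl1 (chrM:2676-2750) directly follows mt-Rnr2, and mt-Tm (chrM:3845-3913) directly precedes mt-Nd2, so that each lies beside a measured gene. Their sequences are given with the anticodon in capitals, as these are the tRNAs that reached 10 counts.
mt-Tm: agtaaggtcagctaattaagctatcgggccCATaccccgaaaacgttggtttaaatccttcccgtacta
mt-Tv: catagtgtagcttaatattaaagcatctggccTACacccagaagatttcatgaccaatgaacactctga
mt-Tl1: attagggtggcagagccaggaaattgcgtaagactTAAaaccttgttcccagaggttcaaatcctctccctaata

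The first question was how these transcripts changed when wt cells were induced. mt-Nd5, mt-Nd4 and mt-Nd2, which encode membrane subunits of complex I, fell between 0 h and 24 h, and mt-Co3, which encodes a core subunit of complex IV, rose under TMM factors. These 4 of 15 genes passed an adjusted p of 0.05 in edgeR's quasi-likelihood test, 1 higher and 3 lower. Over all 16619 genes tested, 50.7% passed, 26.0% higher and 24.7% lower. The median log2 fold change of the 15 was 0.25, against 0.03 over all genes. DESeq2 also called 4 genes (53.3% of all genes).

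mt-Nd5 had 941, 694 and 639.7 CPM at 0 h and 299, 218 and 123 CPM at 24 h. Every library of 24 h was below every library of 0 h. Its log2 fold change was -1.83 ± 0.58 (SE, adjusted p = 0.0144, edgeR). mt-Nd4 had 300.1, 858 and 711 CPM at 0 h and 305, 150.1 and 83.5 at 24 h. The groups overlapped only between replicate 1 of each, and with the nuclear copy added, which gave 536, 858 and 711 CPM at 0 h, they did not overlap. The log2 fold change of mt-Nd4 was -1.80 ± 0.67 (adjusted p = 0.0317) as deposited and -1.97 ± 0.66 (adjusted p = 0.0187) with the copy. mt-Nd2 had 198, 362 and 374 CPM at 0 h and 192, 134 and 95.7 at 24 h, a log2 fold change of -1.15 ± 0.47 (adjusted p = 0.0490). Its lowest library of 0 h was only just above its highest of 24 h.

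mt-Co3 had 117, 1053 and 489.7 CPM at 0 h and 1943, 2535 and 1006 at 24 h. The groups overlapped, since replicate 2 of 0 h was above replicate 3 of 24 h. Its log2 fold change was 1.72 ± 0.67 (adjusted p = 0.0396) as deposited and 1.73 ± 0.50 (adjusted p = 0.00829) with its copy. With copies added, 5 of 15 genes passed (50.7% of all genes), mt-Nd3 being the additional one at 1.69 ± 0.44 (adjusted p = 0.00399). The deposited value of mt-Nd3, another complex I gene, was 0.43 ± 0.45.

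The other genes did not pass in wt. The rRNA genes had log2 fold changes of -1.28 ± 0.69 (mt-Rnr1, adjusted p = 0.129) and 0.54 ± 0.61 (mt-Rnr2, adjusted p = 0.468). For complex I, mt-Nd1 had 0.84 ± 0.40 (adjusted p = 0.0908) and the minus-strand gene mt-Nd6 -1.71 ± 0.78 (adjusted p = 0.0751). mt-Co1 had 0.97 ± 0.50 (adjusted p = 0.111), mt-Cytb 0.25 ± 0.40 (adjusted p = 0.626) and mt-Atp6 0.46 ± 0.49 (adjusted p = 0.445). With their copies added, mt-Co1 had 0.93 ± 0.50 (adjusted p = 0.122) and mt-Atp6 0.54 ± 0.41 (adjusted p = 0.281). Leaving out any 1 of the 6 libraries left 1 to 3 calls, where 39.4% to 46.9% of all genes passed, with 1 call without wt 24 h replicate 2 or without wt 24 h replicate 3 and 2 without wt 0 h replicate 2 or without wt 0 h replicate 3. Without wt 0 h replicate 1, which stood apart, mt-Nd2, mt-Nd4 and mt-Nd5 passed (41.5% of all genes), at -1.43, -2.18 and -1.69, and mt-Co3 did not. mt-Co3 moved to 2.59 without wt 0 h replicate 2, and mt-Nd4 to -2.44 without wt 24 h replicate 1. With library sizes alone, without TMM factors, the median of all genes moved by -0.62 on the log2 scale and 5 genes passed (44.7% of all genes), all lower. They were mt-Nd2 at -1.81, mt-Nd4 at -2.47, mt-Nd5 at -2.45, mt-Rnr1 at -1.95 and mt-Nd6 at -2.22, while mt-Co3 was at 0.95 and did not pass.

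In KO#1 the calls were all rises under TMM factors, and none of them passed with library sizes alone. mt-Co3, mt-Nd1, mt-Atp6, which encodes the proton channel subunit of ATP synthase, and mt-Co2, which encodes a copper-holding subunit of complex IV, were higher at 24 h. These were 4 of 15 genes, all higher, where 40.8% of all genes passed and 20.1% passed as higher. The median log2 fold change of the 15 was 0.66, against 0.0037 over all genes. DESeq2 called 8 (44.5% of all genes). With library sizes alone, the median of all genes moved by -0.79 on the log2 scale and 0 genes passed as higher, mt-Co3 being at 1.42, mt-Nd1 at 0.496, mt-Atp6 at 0.35 and mt-Co2 at 0.34. In that fit 5 genes passed as lower (44.1% of all genes passed), namely mt-Rnr1 at -1.75, mt-Nd2 at -1.41, mt-Nd4 at -2.39, mt-Nd5 at -2.21 and mt-Nd6 at -2.06. A fit of protein-coding and mitochondrial rRNA genes kept the 4 rises, with mt-Co3 at 2.40, mt-Nd1 at 1.41, mt-Atp6 at 1.33 and mt-Co2 at 1.26. There mt-Cytb passed too, at 1.05, and no mitochondrial gene passed as lower. As percent of all counts the 13 genes were at 0.816% at 0 h and 0.923% at 24 h. As percent of the counts on protein-coding genes, the libraries ran from 0.994% to 1.41% at 0 h and from 1.02% to 2.57% at 24 h.

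mt-Nd1, for which no near-identical copy was found, had 478, 607 and 894 CPM at 0 h and 2059, 2086 and 1008 at 24 h. Every library of 24 h was above every library of 0 h, and the log2 fold change was 1.38 ± 0.41 (adjusted p = 0.0126, edgeR). mt-Co3 had 359.9, 69.5 and 544 CPM at 0 h and 2407, 1936 and 691 at 24 h, and the groups did not overlap either. Its log2 fold change was 2.37 ± 0.69 (adjusted p = 0.0111) as deposited and 1.97 ± 0.51 (adjusted p = 0.00543) with the copy. mt-Atp6 had 222, 57.2 and 294 CPM at 0 h and 617, 604 and 200.3 at 24 h. Its log2 fold change of 1.31 ± 0.49 (adjusted p = 0.0420) became 1.02 ± 0.42 (adjusted p = 0.0575) with the copy, so that call was lost. mt-Co2 had the smallest log2 fold change among the calls, 1.23 ± 0.34 (adjusted p = 0.00837) and 1.12 ± 0.35 with the copy.

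With copies added, 5 genes passed in KO#1 (40.8% of all genes), namely mt-Nd1, mt-Co2, mt-Co3, mt-Nd3 at 1.63 ± 0.44 (adjusted p = 0.00688) and mt-Nd4 at -1.71 ± 0.65 (adjusted p = 0.0437). mt-Nd5 had 568, 721 and 259 CPM at 0 h and 276, 239.7 and 101 at 24 h, a log2 fold change of -1.33 ± 0.57 that did not pass (adjusted p = 0.0712). Its 0 h replicate 3 was lower than 1 library of 24 h. The other values were -0.86 ± 0.69 for mt-Rnr1 (adjusted p = 0.328), 0.87 ± 0.61 for mt-Rnr2 (adjusted p = 0.263), 1.196 ± 0.50 for mt-Co1 (adjusted p = 0.0625), 1.02 ± 0.41 for mt-Cytb (adjusted p = 0.0523) and -1.2004 ± 0.77 for mt-Nd6 (adjusted p = 0.218). Leaving out a library gave 2 to 7 calls, where 26.4% to 41.3% of all genes passed. There were 2 without KO#1 0 h replicate 1, KO#1 24 h replicate 1 or KO#1 24 h replicate 2, and 7 without KO#1 0 h replicate 3 (41.3% of all genes) or KO#1 24 h replicate 3 (38.8%). mt-Co3 passed in every one of these fits, and it moved to 2.97 without KO#1 0 h replicate 3. With the copy added, mt-Co1 had 1.15 ± 0.50 (adjusted p = 0.0725).

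In the KO#2-labelled libraries only mt-Nd3 passed, at 22.02, 14.1 and 16.4 CPM at 0 h and 57.3, 19.3 and 64.0 at 24 h. Replicate 2 of 24 h lay within the range of 0 h. The log2 fold change was 1.42 ± 0.46 (adjusted p = 0.0288, edgeR). This was 1 of 15 genes, against 26.0% of all genes passing and 12.7% passing as higher. With the copies added, 0 of 15 passed (26.0% of all genes), and mt-Nd3 had 0.56 ± 0.43 (adjusted p = 0.360). By DESeq2 1 gene passed as deposited (29.6% of all genes). The median log2 fold change of the 15 was -0.41, against -0.03 over all genes.

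Replicate 1 of these libraries at 24 h stood apart from the others in several genes. mt-Nd5 was at 423 CPM in it and at 93.3 and 72.8 in the other 2, where the KO#2-labelled libraries at 0 h had 451, 197 and 283. mt-Rnr1 was at 570.0 CPM in it and at 104 and 62.3 in the other 2, after 786, 163 and 668 at 0 h. Without that library 5 of 15 genes passed, where 23.8% of all genes did, all lower, namely mt-Rnr1 at -2.69 ± 0.66, mt-Rnr2 at -2.07 ± 0.62, mt-Nd2 at -1.06 ± 0.38, mt-Nd4 at -2.34 ± 0.61 and mt-Nd5 at -1.90 ± 0.51 (SE). With all libraries the log2 fold changes were -1.13 ± 0.69 for mt-Rnr1 (adjusted p = 0.244), -1.01 ± 0.61 for mt-Rnr2 (adjusted p = 0.242) and -0.66 ± 0.57 for mt-Nd5 (adjusted p = 0.421). They were 0.03 ± 0.40 for mt-Nd1 (adjusted p = 0.963), -0.66 ± 0.49 for mt-Co1 (adjusted p = 0.350), -0.48 ± 0.49 for mt-Atp6 (adjusted p = 0.505), -0.41 ± 0.76 for mt-Nd6 (adjusted p = 0.733) and -0.39 ± 0.40 for mt-Cytb (adjusted p = 0.521). Without KO#2 0 h replicate 2, KO#2 0 h replicate 3 or KO#2 24 h replicate 3, no gene passed, where 14.8% to 23.8% of all genes did over the 6 fits that left out a library. With their copies added, mt-Co1 had -0.68 ± 0.49 (adjusted p = 0.337) and mt-Atp6 -0.28 ± 0.41 (adjusted p = 0.663).

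**Figure D3:**
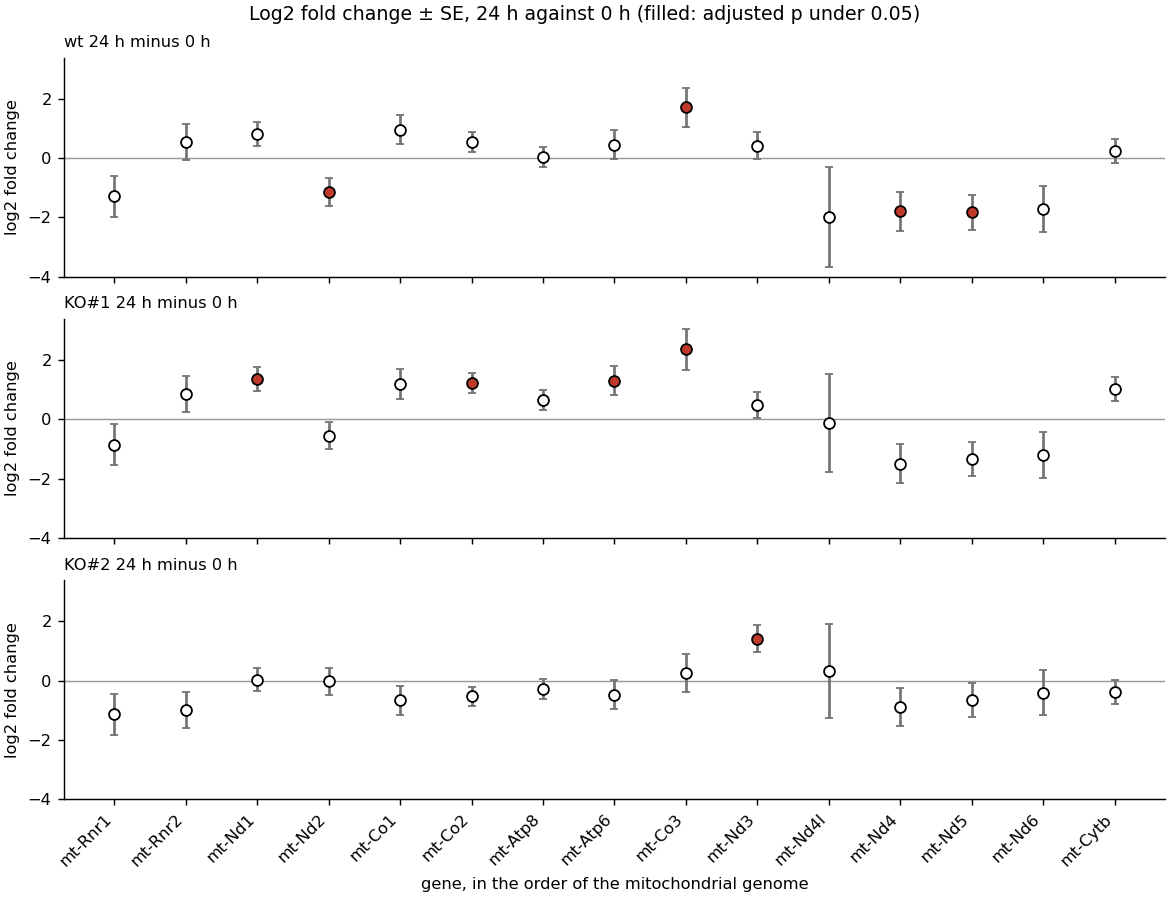
Log2 fold change from 0 h to 24 h, with its SE, of the 15 tested genes in wt, KO#1 and the KO#2-labelled libraries, as deposited. Filled points passed an adjusted p of 0.05. mt-Nd4 and mt-Nd5 have log2 fold changes of -1.80 and -1.83 in wt, and mt-Co3 has 1.72 in wt and 2.37 in KO#1.

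How the mitochondrial transcripts changed among themselves was asked next by scaling each library to the sum of its 13 protein genes, copies added. On this scale mt-Nd4l, mt-Nd4, mt-Nd5 and mt-Nd6, which lie next to each other with tRNA genes between mt-Nd4 and mt-Nd5, fell in wt and in KO#1, as did mt-Nd2 and mt-Rnr1. In wt 7 of 15 genes passed, where 33.9% of all genes did, with mt-Co3 the only one higher. In KO#1 6 of 15 passed, all lower, where 32.9% of all genes did. As deposited, without the copies, 5 passed in wt (31.1% of all genes) and 5 in KO#1 (29.2%), all lower. The calls of mt-Co3 and mt-Nd4l were then lost, with mt-Co3 at 1.26 ± 0.52 in wt (adjusted p = 0.0715, edgeR) and mt-Nd4l at -2.50 ± 1.66 in wt (adjusted p = 0.257) and -1.01 ± 1.60 in KO#1 (adjusted p = 0.658). All nuclear genes are on the same scale here, so that percent carries any change in the 13 against the rest.

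mt-Nd4 made up 8.81%, 5.36% and 5.08% of the summed counts of the 13 genes in wt at 0 h and 1.24%, 0.626% and 0.666% at 24 h. In KO#1 it made up 6.38%, 7.38% and 2.81% and then 0.768%, 0.730% and 0.636%. Neither clone's groups overlapped. Relative to the 13 genes its log2 fold change was -2.93 ± 0.67 in wt (adjusted p = 0.00330, edgeR) and -2.96 ± 0.68 in KO#1 (adjusted p = 0.00369), or 7.60-fold and 7.76-fold lower.

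mt-Nd5 made up 15.5%, 4.33% and 4.57% in wt at 0 h and 1.21%, 0.909% and 0.979% at 24 h. In KO#1 the shares were 7.61%, 7.98% and 2.05% and then 0.957%, 1.06% and 0.887%. Again no library of 24 h reached the lowest of 0 h in either clone. The log2 fold changes were -2.97 ± 0.69 (adjusted p = 0.00335) and -2.60 ± 0.68 (adjusted p = 0.00757), or 7.85-fold and 6.08-fold lower. mt-Nd4 and mt-Nd5 still passed, and still as lower, when any of the 6 libraries was left out, in wt and in KO#1. Leaving out the wt library that stood apart moved mt-Nd5 to -2.11 and mt-Nd4 to -2.63.

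The falls of the remaining genes were less even. mt-Nd2 fell by 1.96 ± 0.51 on the log2 scale in wt (adjusted p = 0.00681) and by 1.70 ± 0.50 in KO#1 (adjusted p = 0.0152). mt-Nd4l fell by 2.01 ± 0.53 (adjusted p = 0.00762) and by 1.83 ± 0.53 (adjusted p = 0.0137). In wt both passed in all 6 leave-outs, and in KO#1 each passed in 3 of 6. mt-Nd6 made up 5.01%, 0.590% and 0.298% in wt at 0 h and 0.262%, 0.170% and 0.226% at 24 h, with replicate 1 of 0 h far above the others. It fell by 3.15 ± 0.93 (adjusted p = 0.0145), and without that library the log2 fold change was -1.02 and did not pass. In KO#1 mt-Nd6 fell by 2.53 ± 0.91 (adjusted p = 0.0385), and it passed in 1 of 6 leave-outs. mt-Rnr1 fell by 2.21 ± 0.71 in wt (adjusted p = 0.0221) and by 2.14 ± 0.71 in KO#1 (adjusted p = 0.0268), passing in 3 and 2 of 6 leave-outs.

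mt-Co3 moved the other way. It made up 6.76%, 13.6% and 8.74% of the 13 genes in wt at 0 h and 18.6%, 23.1% and 20.4% at 24 h, with no overlap. Its log2 fold change was 1.09 ± 0.33 (adjusted p = 0.0171), and 3 of 6 leave-outs kept the call. In KO#1 it went from 11.4%, 8.16% and 12.0% to 19.1%, 20.4% and 17.7%, a log2 fold change of 0.86 ± 0.33 that did not pass (adjusted p = 0.0528). mt-Nd1, mt-Co1, mt-Co2, mt-Atp6 and mt-Cytb had values between -0.48 and 0.32 in both clones and did not pass. mt-Cytb, which lies beyond mt-Nd6, thus had -0.48 ± 0.34 in wt (adjusted p = 0.278) and -0.12 ± 0.34 in KO#1 (adjusted p = 0.801).

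In the KO#2-labelled libraries, 0 of 15 genes passed on this scale, where 10.4% of all genes did. mt-Nd4 made up 5.97%, 1.41% and 4.13% at 0 h and 5.95%, 1.197% and 0.726% at 24 h, with replicate 1 of 24 h at the level of 0 h. mt-Nd5 made up 4.32%, 1.40% and 3.06% and then 5.03%, 1.19% and 0.842%. The share of mt-Co3 was at 9.24%, 11.5% and 11.3% at 0 h and at 13.5%, 20.2% and 18.6% at 24 h, without overlap, and its log2 fold change of 0.71 ± 0.33 did not pass (adjusted p = 0.179). Without that replicate 1, mt-Rnr1 at -2.37, mt-Rnr2 at -1.72 and mt-Nd4 at -1.996 passed as lower, where 6.83% of all genes passed. The response of the KO#2-labelled libraries differed from that of wt by 2.38 ± 0.90 for mt-Nd4 (adjusted p = 0.120) and by 2.66 ± 0.92 for mt-Nd5 (adjusted p = 0.112) relative to the 13 genes, so a difference in response was not shown.

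**Figure D4:**
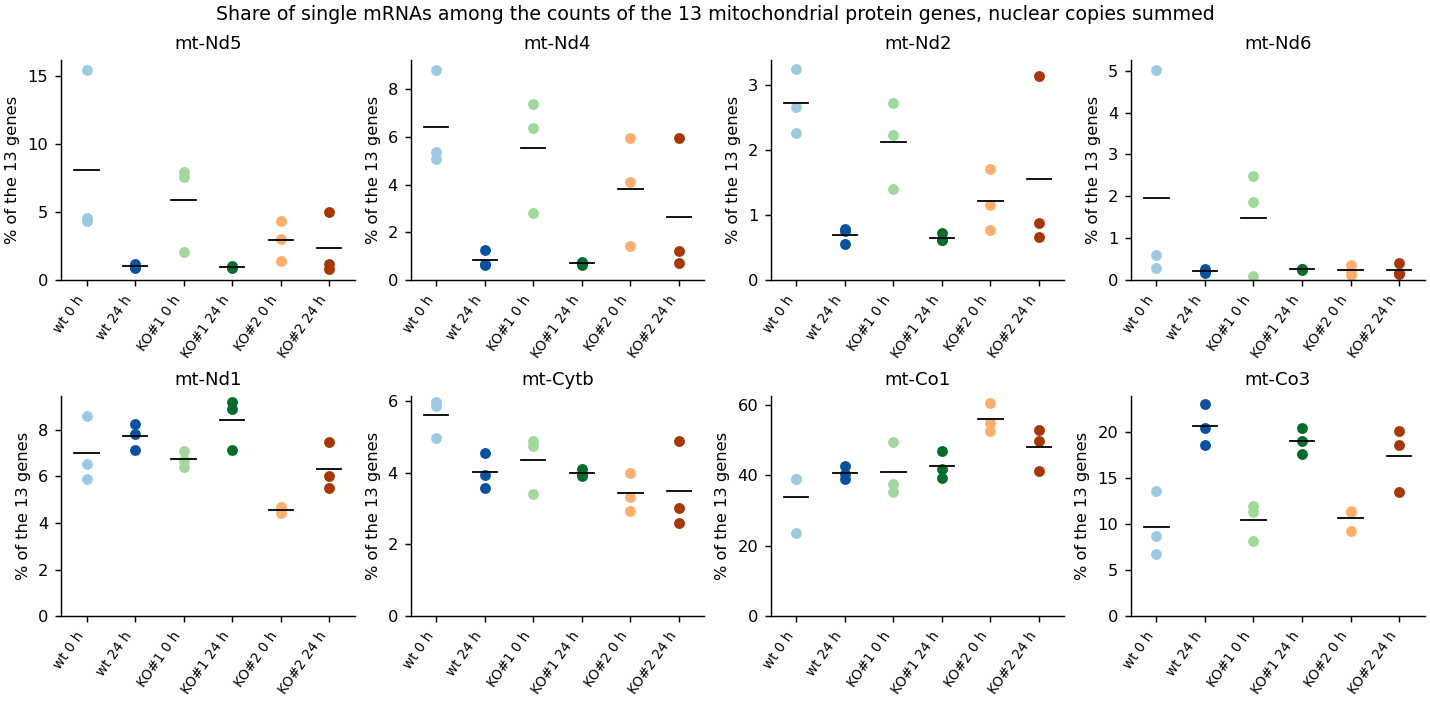
Percent of the summed counts of the 13 protein genes held by 8 of them, nuclear copies added, in the 6 groups. Lines are group means and points are libraries. mt-Nd5 fell from 4.33% or more to 1.21% or less in wt, and mt-Co3 rose from 13.6% or less to at least 18.6%.

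Several library properties moved with these shares. The ratio of mt-Rnr2 to mt-Rnr1 counts was 1.45 to 2.86 in wt and 2.06 to 4.10 in KO#1 at 0 h, and 7.38 to 10.3 in both at 24 h, without overlap. In the KO#2-labelled libraries it was 6.22 to 12.6 at 0 h and 6.64 to 12.2 at 24 h. Counts on the noncoding gene Gm26917 took a large and uneven share and made up 33.3%, 11.9% and 15.8% of wt libraries at 0 h and 5.57% to 8.81% at 24 h, and 16.4%, 20.2% and 2.65% of KO#1 libraries at 0 h. Among the KO#2-labelled libraries at 24 h its share was highest in replicate 1, at 7.07% against 2.72% and 2.17%. The KO#1 library of 0 h with the lowest share, replicate 3, was also the one with the lowest shares of mt-Nd4 and mt-Nd5. The part of this in the mitochondrial shares was not tested.

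Clones were compared next, at each time. At 0 h no mitochondrial gene passed between KO#1 and wt. The count was 0 of 15 by edgeR at an adjusted p of 0.05, where 6.67% of all genes passed, and 0 by DESeq2 (9.3% of all genes). All 15 log2 differences were below 0, with a median of -0.63 against 0.02 over all genes, and they ran from -1.39 to -0.12. mt-Atp8 was lowest in p, with 105, 123 and 121 CPM in wt and 57.3, 67.4 and 64.7 in KO#1, which did not overlap. Its difference was -0.88 ± 0.35 (adjusted p = 0.153). The other differences were -0.65 ± 0.69 for mt-Rnr1 (adjusted p = 0.652), -0.34 ± 0.61 for mt-Rnr2 (adjusted p = 0.805), -0.40 ± 0.40 for mt-Nd1 (adjusted p = 0.631) and -0.12 ± 0.49 for mt-Co1 (adjusted p = 0.925). Those of mt-Atp6, mt-Nd5, mt-Nd6 and mt-Cytb were -0.996 ± 0.49 (adjusted p = 0.270), -0.56 ± 0.57 (adjusted p = 0.635), -0.22 ± 0.76 (adjusted p = 0.905) and -0.76 ± 0.41 (adjusted p = 0.314). With copies added all 15 differences were again below 0, from -0.88 to -0.10, and mt-Atp6 had -0.77 ± 0.42 (adjusted p = 0.325).

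At 24 h no mitochondrial gene passed between KO#1 and wt. The count was 0 of 15 by edgeR, where 9.86% of all genes passed, and 0 by DESeq2 (12.8% of all genes). The differences ran from -0.25 to 0.48, with a median of -0.05. They were -0.22 ± 0.68 for mt-Rnr1 (adjusted p = 0.919), -0.02 ± 0.61 for mt-Rnr2 (adjusted p = 0.995), 0.14 ± 0.40 for mt-Nd1 (adjusted p = 0.906) and 0.11 ± 0.49 for mt-Co1 (adjusted p = 0.948). Those of mt-Atp6, mt-Nd5, mt-Nd6 and mt-Cytb were -0.15 ± 0.49 (adjusted p = 0.923), -0.05 ± 0.56 (adjusted p = 0.983), 0.28 ± 0.76 (adjusted p = 0.902) and 0.01 ± 0.40 (adjusted p = 0.995). With copies added the 15 differences ran from -0.29 to 0.29, and mt-Nd4l, the highest as deposited at 0.48, was at -0.06. Same-numbered libraries of these 2 groups deviated together. In a fit of these 6 libraries alone with the replicate number as a block, 1 gene passed, mt-Atp8 at -0.26 ± 0.09 (adjusted p = 0.0418), where 42.6% of all genes did.

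The KO#2-labelled libraries were lower than wt at 0 h in genes of several roles. mt-Rnr1, mt-Nd2, mt-Nd3, mt-Nd6 and mt-Atp8 passed as lower and no gene passed as higher. These 5 of 15 compare with 38.1% of all genes passing, 16.6% as lower. The median log2 difference of the 15 was -0.87, against 0.10 over all genes. DESeq2 called 6 (41.6% of all genes). With library sizes alone, the median of all genes moved by 0.45 on the log2 scale and 4 genes passed (33.1% of all genes). mt-Rnr1 at -1.65, mt-Nd3 at -2.003 and mt-Nd6 at -1.88 were lower and mt-Co2 at 1.21 was higher, while mt-Nd2 at -0.81 and mt-Atp8 at -0.65 did not pass.

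mt-Rnr1 had 1654, 3107 and 2189 CPM in wt and 786, 163 and 668 in the KO#2-labelled libraries. The groups did not overlap, and the log2 difference was -2.10 ± 0.71 (adjusted p = 0.0277, edgeR). mt-Atp8, with 48.8, 72.0 and 42.3 CPM in the KO#2-labelled libraries, was likewise below all wt libraries, at -1.10 ± 0.35 (adjusted p = 0.0205). mt-Nd6 had 305, 94.5 and 41.7 CPM in wt and 37.4, 29.997 and 11.9 in the KO#2-labelled libraries, at -2.46 ± 0.80 (adjusted p = 0.0232), with a gap between groups of a few CPM only. mt-Nd3 had the lowest log2 difference, -2.52 ± 0.47 (adjusted p = 0.000897), from 138, 126 and 37.9 CPM to 22.02, 14.1 and 16.4. With the nuclear copy added it was -0.83 ± 0.43 and did not pass (adjusted p = 0.132).

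With copies added 4 genes passed (38.1% of all genes), mt-Rnr1, mt-Nd2 at -1.24 ± 0.47, mt-Atp8 and mt-Nd6. The difference of mt-Co2 turned from 0.78 ± 0.34 as deposited (adjusted p = 0.0721) to -0.62 ± 0.35 with the copy (adjusted p = 0.159), while mt-Co1 had 0.54 ± 0.49 (adjusted p = 0.394) and mt-Atp6 -0.42 ± 0.41 (adjusted p = 0.432) with theirs. The other differences, as deposited, were -0.56 ± 0.61 for mt-Rnr2 (adjusted p = 0.478), -0.76 ± 0.40 for mt-Nd1 (adjusted p = 0.142), 0.51 ± 0.49 for mt-Co1 (adjusted p = 0.419), -0.38 ± 0.49 for mt-Atp6 (adjusted p = 0.552), -1.29 ± 0.57 for mt-Nd5 (adjusted p = 0.0824) and -0.87 ± 0.41 for mt-Cytb (adjusted p = 0.0970). Relative to the sum of the 13 genes, 2 genes passed (15.0% of all genes), mt-Nd6 at -3.06 ± 0.93 and mt-Atp8 at -1.22 ± 0.37. Neither passed without wt 0 h replicate 1 or without any of the 3 KO#2-labelled libraries in turn, and mt-Atp8 did not pass without wt 0 h replicate 3 either. Without wt 0 h replicate 1, mt-Nd6 was at -0.93 and mt-Atp8 at -0.77. In the fit over all genes, leaving out a library gave 1 to 6 calls, where 25.8% to 32.5% of all genes passed, with 1 without KO#2 0 h replicate 3, 2 without KO#2 0 h replicate 2 or wt 0 h replicate 3, and 3 without wt 0 h replicate 2. Without wt 0 h replicate 1, which stood apart, 6 of 15 passed, where 25.8% of all genes did, namely mt-Rnr1, mt-Nd1 at -1.15 ± 0.36, mt-Nd2, mt-Nd3, mt-Atp8 and mt-Cytb at -1.25 ± 0.37, and mt-Nd6 moved to -1.40 and did not pass. mt-Nd3 was the only gene that passed in every one of these fits.

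At 24 h the KO#2-labelled libraries were lower than wt in 7 of 15 genes, both rRNAs among them, and none passed as higher. The rRNA values are what the removal of ribosomal sequences left, and a difference in that step between libraries was not tested. Over all genes 37.3% passed, 16.0% as lower. The 7 were mt-Rnr1, mt-Rnr2, mt-Nd1, mt-Nd3, mt-Atp8, mt-Atp6 and mt-Cytb. The median log2 difference of the 15 was -1.32, against 0.20 over all genes, and DESeq2 called 9 (40.5% of all genes). The composition of the libraries differed too, as protein-coding genes took 82.3% to 84.7% of the counts in the KO#2-labelled libraries of 24 h and 41.6% to 63.4% in those of wt. At 0 h the ranges were 76.3% to 79.1% and 52.6% to 66.7%. In a fit of protein-coding and mitochondrial rRNA genes only, 6 of the 7 passed as lower at 24 h, where 35.6% of all genes in that fit passed, and mt-Atp6 at -1.24 did not.

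mt-Rnr2 had 11048, 9131 and 3759.8 CPM in wt and 3786, 1001 and 761 in the KO#2-labelled libraries. The groups met only where replicate 1 of the latter reached the lowest wt library, and the log2 difference was -2.11 ± 0.63 (adjusted p = 0.0143, edgeR). mt-Rnr1 differed by -1.96 ± 0.71 (adjusted p = 0.0370). mt-Nd1 had 1920.4, 1709 and 1034 CPM in wt and 629, 430.1 and 522 in the KO#2-labelled libraries, without overlap, at -1.56 ± 0.41 (adjusted p = 0.00666). mt-Cytb had 411, 237 and 224 CPM in the KO#2-labelled libraries and did not overlap wt either, at -1.50 ± 0.41 (adjusted p = 0.00863). mt-Atp6 showed the smallest of these differences, -1.32 ± 0.49 (adjusted p = 0.0435), with 615, 648 and 310.3 CPM in wt and 276, 184 and 170.4 in the KO#2-labelled libraries.

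mt-Co1 differed by -1.12 ± 0.50 (adjusted p = 0.0849), mt-Nd5 by -0.12 ± 0.56 (adjusted p = 0.886) and mt-Nd6 by -1.17 ± 0.77 (adjusted p = 0.245). With copies added 9 genes passed (37.3% of all genes), since mt-Co2 at -1.85 ± 0.36 (adjusted p = 0.000671) and mt-Co3 at -1.55 ± 0.50 (adjusted p = 0.0210) joined the 7. With their copies added, mt-Atp6 had -1.24 ± 0.42 (adjusted p = 0.0267), mt-Nd3 -1.96 ± 0.44 (adjusted p = 0.00231) and mt-Co1 -1.07 ± 0.50 (adjusted p = 0.0959). mt-Nd4l turned from 1.26 ± 1.65 as deposited to -0.66 ± 0.49, and passed in neither form. The deposited mt-Co2 value was -0.29 ± 0.33, and the copy held 84.3% of the pair in wt and 56.1% in the KO#2-labelled libraries.

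This comparison depends on the scaling of the libraries. With library sizes alone, without TMM factors, the median of all genes moved by 1.04 on the log2 scale and 0 of the 15 genes passed, where 61.4% of all genes did. As percent of all counts, the 13 genes were at 0.933% in wt and 0.902% in the KO#2-labelled libraries. Relative to the sum of the 13 genes 1 gene passed (51.2% of all genes), mt-Nd4 as higher in the KO#2-labelled libraries at 1.64 ± 0.64 (adjusted p = 0.0397), and it did not pass without KO#2 24 h replicate 1, wt 24 h replicate 2 or wt 24 h replicate 3, with values of 0.19, 1.46 and 1.49. Without KO#2 24 h replicate 1, mt-Rnr1 at -2.13 ± 0.67 (adjusted p = 0.0175) and mt-Rnr2 at -1.80 ± 0.49 (adjusted p = 0.00821) passed instead, both as lower, where 41% of all genes passed. On that scale, with all libraries, mt-Atp6 was at 0.09 ± 0.31. Under TMM factors, leaving out a library gave 3 to 7 calls, where 26.5% to 35% of all genes passed, with 3 without KO#2 24 h replicate 2 and 4 without KO#2 24 h replicate 3 or wt 24 h replicate 2. Without KO#2 24 h replicate 1, which stood apart, 7 of 15 passed, where 26.5% of all genes did, with mt-Rnr1 at -3.51 ± 0.69 and mt-Rnr2 at -3.17 ± 0.66, and with mt-Nd2 at -1.16 ± 0.38 (adjusted p = 0.0320) in place of mt-Atp6. mt-Nd1, mt-Atp8 and mt-Cytb passed in each of the 6 fits that left out a library, and mt-Atp6 in 1 of them.

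**Figure D5:**
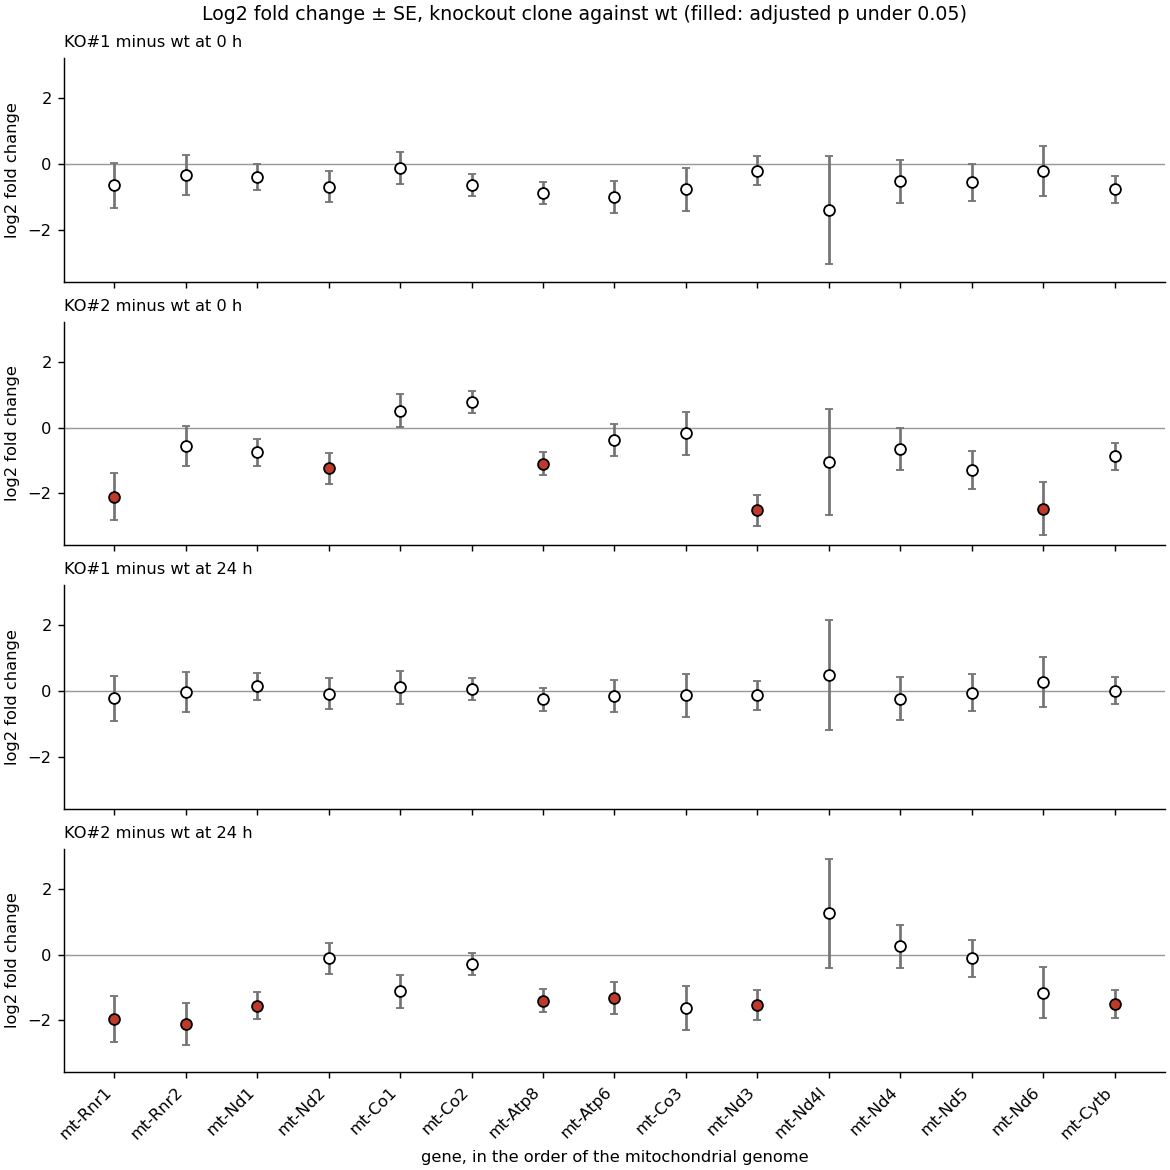
Log2 difference from wt, with its SE, of the 15 tested genes in KO#1 and in the KO#2-labelled libraries, at 0 h and at 24 h, as deposited. Filled points passed an adjusted p of 0.05. KO#1 has no filled point, and the KO#2-labelled libraries have 5 at 0 h and 7 at 24 h, all below 0.

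Whether the response over 24 h differed between clones was tested as an interaction. For KO#1 against wt, 0 of 15 genes passed by edgeR (0.391% of all genes) and 0 by DESeq2 (1.76% of all genes). All 15 interaction values were above 0 as deposited, from 0.07 to 1.87, while with copies added mt-Nd3 was at -0.06 and the highest value was 0.77. They share the 0 h libraries in which all 15 were lower in KO#1. They were 0.43 ± 0.97 for mt-Rnr1 (adjusted p = 0.932), 0.32 ± 0.86 for mt-Rnr2 (adjusted p = 0.942), 0.54 ± 0.57 for mt-Nd1 (adjusted p = 0.806), 0.23 ± 0.70 for mt-Co1 (adjusted p = 0.954), 0.85 ± 0.69 for mt-Atp6 (adjusted p = 0.743), 0.50 ± 0.80 for mt-Nd5 (adjusted p = 0.894), 0.51 ± 1.08 for mt-Nd6 (adjusted p = 0.926) and 0.77 ± 0.57 for mt-Cytb (adjusted p = 0.715). With their copies added, mt-Co1 had 0.21 ± 0.69 and mt-Atp6 0.48 ± 0.59.

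For the KO#2-labelled libraries against wt, 0 of 15 passed by edgeR (1.47% of all genes) and 0 by DESeq2 (10.8% of all genes). Lowest in p were mt-Co1 at -1.63 ± 0.70 (adjusted p = 0.177) and mt-Co2 at -1.08 ± 0.47 (adjusted p = 0.185), or -1.61 ± 0.70 (adjusted p = 0.179) and -1.23 ± 0.49 (adjusted p = 0.150) with their copies. mt-Nd3 turned from 0.99 as deposited to -1.13 ± 0.60 (adjusted p = 0.262) with its copy, and mt-Atp6 had -0.82 ± 0.59 (adjusted p = 0.397) with its own. The others were 0.15 ± 0.97 for mt-Rnr1 (adjusted p = 0.942), -1.55 ± 0.86 for mt-Rnr2 (adjusted p = 0.279), -0.80 ± 0.57 for mt-Nd1 (adjusted p = 0.393), -0.94 ± 0.69 for mt-Atp6 (adjusted p = 0.411), 1.17 ± 0.80 for mt-Nd5 (adjusted p = 0.379), 1.30 ± 1.08 for mt-Nd6 (adjusted p = 0.473) and -0.64 ± 0.57 for mt-Cytb (adjusted p = 0.509).

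The nuclear genes that transcribe, process and copy the mitochondrial genome were read beside the members. Of 45 listed genes 44 were tested. All fitted values of these genes, here and below, are under TMM factors. With library sizes alone the median of all genes moved by -0.62 over time in wt and by -0.79 in KO#1. Between the KO#2-labelled libraries and wt it moved by 0.45 at 0 h and by 1.04 at 24 h. The listed genes were not read under that scaling. In wt 26 of them passed between 0 h and 24 h, 20 higher and 6 lower, where 50.7% of all genes passed. In KO#1 it was 18, 14 higher and 4 lower, where 40.8% of all genes passed, and in the KO#2-labelled libraries 8, 7 higher and 1 lower, where 26.0% did. As shares of the 44 these are 59.1%, 40.9% and 18.2%. By role, 5 of 9 transcription genes, 14 of 21 RNA processing and stability genes, 4 of 8 replication genes and 3 of 6 biogenesis regulators passed in wt, with median log2 fold changes of 0.93, 0.93, 0.34 and -0.01, against 0.03 over all genes. Against wt, KO#1 had 2 calls at 0 h, both higher, and 1 at 24 h, higher, where 6.67% and 9.86% of all genes passed. The KO#2-labelled libraries had 14 at 0 h, 4 higher and 10 lower, and 9 at 24 h, 3 higher and 6 lower, or 31.8% and 20.5% of the 44, where 38.1% and 37.3% of all genes passed. No listed gene passed as an interaction.

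Tfam, which packages mitochondrial DNA and starts its transcription, rose in wt from 33.1 ± 10.4 to 63.5 ± 18.2 CPM (SD, n = 3), a log2 fold change of 0.93 ± 0.33 (SE, adjusted p = 0.0237, edgeR), and in KO#1 by 1.03 ± 0.33 (adjusted p = 0.0181). The value in the KO#2-labelled libraries was 0.77 ± 0.32 (adjusted p = 0.0851). Polrmt, the mitochondrial RNA polymerase, fell by 1.04 ± 0.34 in wt (adjusted p = 0.0164), and had -0.56 ± 0.34 in KO#1 (adjusted p = 0.189) and -0.32 ± 0.33 in the KO#2-labelled libraries (adjusted p = 0.510). Transcription genes thus did not all move one way.

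Lrpprc, which stabilises mitochondrial mRNAs, rose from 82.1 ± 14.0 to 169.5 ± 33.3 CPM in wt, at 1.04 ± 0.24 (adjusted p = 0.00186), and by 0.79 ± 0.24 in KO#1 (adjusted p = 0.0149), with -0.01 ± 0.24 in the KO#2-labelled libraries (adjusted p = 0.978). Its partner Slirp had the highest called value in wt, 2.28 ± 0.48 (adjusted p = 0.000927). Mtpap, the mitochondrial poly(A) polymerase, rose by 1.33 ± 0.25 in wt (adjusted p = 0.000376) and by 1.13 ± 0.25 in KO#1 (adjusted p = 0.00193), and had 0.60 ± 0.24 in the KO#2-labelled libraries (adjusted p = 0.0768). The lowest called value in wt and KO#1 was that of the coactivator Ppargc1b, at -3.41 ± 0.64 (adjusted p = 0.000334) and -2.27 ± 0.64 (adjusted p = 0.00921). Mterf1b, a relative of a transcription termination factor, was highest in KO#1 at 1.98 ± 0.71 (adjusted p = 0.0330). In the KO#2-labelled libraries the extremes were the helicase gene Twnk at 1.27 ± 0.26 (adjusted p = 0.00176) and Fastkd1 at -0.62 ± 0.22 (adjusted p = 0.0485).

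Between clones, Tfam, Polrmt, Lrpprc and Mtpap, were followed in every comparison. Polrmt, at -1.12 ± 0.34 (adjusted p = 0.0159), and Lrpprc, at 0.90 ± 0.24 (adjusted p = 0.00845), were the 2 that passed among their differences from wt, both in the KO#2-labelled libraries at 0 h. Tfam differed from wt by 0.02 ± 0.33 in KO#1 at 0 h (adjusted p = 0.980), 0.34 ± 0.32 in the KO#2-labelled libraries at 0 h (adjusted p = 0.413), 0.12 ± 0.32 in KO#1 at 24 h (adjusted p = 0.903) and 0.18 ± 0.32 in the KO#2-labelled libraries at 24 h (adjusted p = 0.690). Mtpap differed by 0.19 ± 0.25 (adjusted p = 0.723), 0.43 ± 0.25 (adjusted p = 0.170), -0.01 ± 0.24 (adjusted p = 0.994) and -0.29 ± 0.24 (adjusted p = 0.355) in the same order. The remaining values of Polrmt were -0.70 ± 0.34 (adjusted p = 0.259), -0.22 ± 0.33 (adjusted p = 0.787) and -0.41 ± 0.33 (adjusted p = 0.353), and those of Lrpprc -0.13 ± 0.24 (adjusted p = 0.811), -0.39 ± 0.24 (adjusted p = 0.385) and -0.16 ± 0.24 (adjusted p = 0.634), for KO#1 at 0 h, KO#1 at 24 h and the KO#2-labelled libraries at 24 h.

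Extremes of the lists between clones were as follows. Grsf1, an RNA granule protein, at 0.97 ± 0.20 (adjusted p = 0.00648) and the exonuclease gene Rexo2 at 0.94 ± 0.25 (adjusted p = 0.0285) were the 2 calls of KO#1 at 0 h. The DNA polymerase gene Polg, at 0.99 ± 0.24 (adjusted p = 0.0128), was the call of KO#1 at 24 h. In the KO#2-labelled libraries, the transcription factor gene Gabpa was highest at 0 h and at 24 h, at 1.52 ± 0.20 (adjusted p = 5.68e-05) and 1.01 ± 0.20 (adjusted p = 0.000797). Lowest were Ppargc1b at 0 h, at -1.57 ± 0.56 (adjusted p = 0.0352), and Hsd17b10, a subunit of mitochondrial RNase P, at 24 h, at -1.50 ± 0.38 (adjusted p = 0.00479).

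The genes whose level across the 18 libraries was most like the summed level of the 13 protein genes were sought among 10701 other tested genes with an average log2 CPM of 2 or more, by Pearson's r of log2 CPM. They were Gm26165 (r = 0.926), Snora7a (0.915), Gm26447 (0.904), Rps15a (0.904) and Snora21 (0.904). Of these Rps15a encodes a protein of the small cytosolic ribosomal subunit and the other 4 are annotated as small nucleolar RNAs. All 18 points share the library scaling, and these values are a description without a test.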

How the data were processed

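Total RNA of 18 libraries, 3 in each of 6 groups of clone and time, was sequenced. The authors trimmed reads with Trim Galore within the nf-core rnaseq pipeline, discarded ribosomal sequences, aligned reads to Ensembl GRCm38 with STAR and quantified them with Salmon and StringTie. The deposited table holds raw counts per gene, and the labels name DESeq2. The annotation release, the use of strand and the treatment of reads that match a pair of genes are not given in the sources used here. Such treatment can decide how counts fall on mitochondrial genes and their nuclear copies.

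Groups and replicate numbers were taken from the labels. Gene positions were taken from GENCODE M21 on GRCm38, in which 45143 of 45706 gene identifiers were found, and sequences from the transcripts of the same release. Nuclear copies were sought with blastn 2.17.0 among the other GENCODE M21 transcripts, and matches to genes of the count table were kept. They were called near-identical at 99% identity or more over at least 100 aligned bases. Counts were fitted with edgeR 4.0.16 in R 4.3.3 by the quasi-likelihood test in 1 model of the 6 groups. The filter filterByExpr with a minimum count of 10 kept 16619 genes, and library sizes were scaled by TMM factors. A gene was called at a Benjamini-Hochberg adjusted p under 0.05 over all genes tested. CPM values are counts scaled to a common library size after TMM factors, and length is that of the annotated gene. Symbols not in the table were looked up by synonym, as for Prorp. The fit was also run on simulated counts with known changes and a set spread, which does not check the p-values of these libraries. The p-values measure only the spread between the libraries of a group.

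The members and the gene lists were chosen with earlier results of these data known. Full statistics are given for 8 members, mt-Co1, mt-Cytb, mt-Atp6, mt-Nd1, mt-Nd5, mt-Nd6, mt-Rnr1 and mt-Rnr2, and for the called members with the highest and lowest log2 fold change in each class. From the nuclear lists, Tfam, Polrmt, Lrpprc, Mtpap and the called genes with the highest and lowest value are named.

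Alternatives were other scaling factors, other filters and thresholds, DESeq2 1.42.0, a fit of the compared groups alone, the replicate number as a block and the omission of each library in turn. The addition of nuclear copies, the fit of protein-coding and mitochondrial rRNA genes only and the block within 1 pair of groups were chosen after seeing the data. Same-numbered libraries deviated together in every pair only between wt and KO#1 at 24 h, where the correlation of deviations from the group means averaged 0.430 and was at least 0.223. The labels do not say what a number stands for.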

Additional observations from a re-analysis of the deposited data

How the results depend on the processing

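Counts of called genes moved with the filter on low counts. With no filter, 9 genes passed over time in wt, 9 in KO#1 and 3 in the KO#2-labelled libraries, 2 between KO#1 and wt at 0 h, 11 between the KO#2-labelled libraries and wt at 24 h and 3 in the response of KO#2 against that of wt, where 28.7%, 23.5%, 15.8%, 5.23%, 22% and 5.9% of all genes passed in the same order. With at least 10 counts required in every library, 0 passed over time in the KO#2-labelled libraries (26.9% of all genes). At an adjusted p under 0.01 the counts over time were 0 in wt, 1 in KO#1 and 0 in the KO#2-labelled libraries, which against wt had 1 at 0 h and 3 at 24 h, where 34.8%, 24.1%, 13.7%, 18.8% and 21.6% of all genes passed. DESeq2 called 8 over time in KO#1 (44.5% of all genes). With library sizes alone 0 passed between the KO#2-labelled libraries and wt at 24 h (61.4% of all genes), and the median of all genes moved by -0.62, -0.79 and -0.03 over time in wt, KO#1 and the KO#2-labelled libraries. In that fit none passed as higher over time in wt or KO#1, and 5 passed as lower in each. Scaled to the 13 protein genes without the copies, 0 passed over time in the KO#2-labelled libraries, which against wt had 3 at 0 h and 0 at 24 h, where 10.6%, 12% and 43.8% of all genes passed. With copies added and this scaling, 7 passed over time in wt and 0 in the KO#2-labelled libraries, which against wt had 2 at 0 h and 1 at 24 h (33.9%, 10.4%, 15% and 51.2% of all genes), and mt-Atp6 reversed to -0.10 over time in KO#1 and to 0.0853 between the KO#2-labelled libraries and wt at 24 h. With copies added alone, 0 passed over time in the KO#2-labelled libraries (26% of all genes). The causes of these moves were not tested.

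Leaving out a library gave 1 to 3 calls over time in wt, 2 to 7 in KO#1 and 0 to 5 in the KO#2-labelled libraries. Against wt the KO#2-labelled libraries gave 1 to 6 at 0 h and 3 to 7 at 24 h, and KO#1 and both responses gave 0. The shares of all genes passing in these fits were 39.4% to 46.9%, 26.4% to 41.3%, 14.8% to 23.8%, 25.8% to 32.5% and 26.5% to 35% for the 5 comparisons in that order, and for those with 0 calls 3.45% to 5.41% at 0 h, 5.99% to 7.52% at 24 h, 0.035% to 0.225% and 0.296% to 3.3%. Relative to the sum of the 13 genes the ranges were 4 to 8 in wt, 2 to 6 in KO#1, 0 to 3 in the KO#2-labelled libraries, and for these against wt 0 to 2 at each time, where 19.1% to 39.1%, 15.6% to 51%, 3.32% to 6.83%, 6.24% to 16.8% and 32.8% to 61.7% of all genes passed. With the replicate block over all libraries, 6 genes passed in wt, 5 in KO#1 and 1 in the KO#2-labelled libraries, and these against wt had 6 at 0 h and 6 at 24 h, where 52%, 41.7%, 27.2%, 38.9% and 38.7% of all genes passed. KO#1 against wt and both responses had 0 under this block (6.78%, 10.1%, 0.301% and 2.69% of all genes), and the block with only wt and KO#1 of 24 h gave 1 (42.6% of all genes). Apart from the 24 h libraries of wt and KO#1, the numbers pair no groups.

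As percent of the counts on protein-coding genes, the 13 genes took 1.54, 1.17 and 1.69 in wt, KO#1 and the KO#2-labelled libraries at 0 h and 1.76, 1.86 and 1.09 at 24 h. As percent of all counts with copies added, they took 1.11 and 1.60 in KO#1 and the KO#2-labelled libraries at 0 h and 1.33, 1.30 and 1.15 in wt, KO#1 and the KO#2-labelled libraries at 24 h. The wt libraries of 0 h were at 0.535, 1.74 and 1.58 on that measure. With copies added, the part of mt-Co1 in the 13 genes was 40.9% in KO#1 and 56.1% in the KO#2-labelled libraries at 0 h, and 40.8%, 42.8% and 48.1% in wt, KO#1 and the KO#2-labelled libraries at 24 h. That of mt-Nd5 was 1.03% in wt and 0.967% in KO#1 at 24 h. Of the fold changes that passed, 297 values under alternatives kept direction and call, 121 kept direction but not the call and 2 reversed. Of 114 fold changes that did not pass, 67 changed sign under at least 1 alternative. Depth was lowest in wt 0 h replicate 1. The tRNA genes had too few counts to be tested, and the deposited zeros of mt-Nd4l stand in libraries where its nuclear copy held 100% of the pair.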
